A study of Bos taurus with 27 samples.

Results

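The 6 genes described here, of 19994 counted per library, stood among the leading candidates for an effect of maternal diet on the cattle embryo, and none of them passed a test adjusted over all genes. Among short embryos ENSBTAG00000017580 and ENSBTAG00000005141 had more RNA under the omega-3 diet, and ENSBTAG00000003525, ENSBTAG00000018991, ENSBTAG00000018073 and ENSBTAG00000038438 had less. RNA was sequenced from 27 single embryos (Bos taurus) at day 15 of pregnancy, 1 library each: 6 long and 10 short embryos whose dams were fed an omega-3 diet, and 11 short embryos whose dams were fed an omega-6 diet. Their titles carry a size number without a unit, which ran from 10.5 to 20.3 in long omega-3, from 0.4 to 9.5 in short omega-3 and from 1.4 to 7.7 in short omega-6 embryos, and a letter m or f, taken here as sex. All embryos share species, day and tissue, and no long embryo from the omega-6 diet was analysed here. The labels name neither the dams nor the composition of the diets, so embryos of a group may share a dam and p-values compare these embryos only.

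Around this stage the bovine embryo is not yet attached, and its outer layer, the trophectoderm, lengthens from a sphere into a filament while it secretes interferon tau, the signal by which ruminants recognise pregnancy. Omega-3 and omega-6 fatty acids are families of polyunsaturated fats that mammals take from the diet. They compete for the same desaturases and elongases and are precursors of prostaglandins, which the uterus and the elongating embryo both make. The files pair no identifier with a gene name, and the RefSeq table used here matched 0 of the 6, so no product, role, position or sequence can be given for these genes. Whole embryos were sequenced, so fewer cells of a type and less RNA per cell cannot be told apart.

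The members were chosen by the smallest unadjusted p-values for diet, so every diet value given here describes the choice and tests nothing. Among short embryos (short omega-3 minus short omega-6, with the sex letter in the model) ENSBTAG00000018073, ENSBTAG00000018991, ENSBTAG00000003525, ENSBTAG00000017580 and ENSBTAG00000038438 ranked 2, 3, 4, 8 and 13 of 11919 genes by unadjusted p, and ENSBTAG00000005141 ranked 42. With diet, log2 size number and sex letter in the model of all 27 embryos, ENSBTAG00000038438, ENSBTAG00000005141, ENSBTAG00000003525 and ENSBTAG00000017580 ranked 1, 2, 3 and 7, while ENSBTAG00000018991 ranked 74 and ENSBTAG00000018073 ranked 1541. By place among the first 20, candidates in both comparisons were ENSBTAG00000003525, ENSBTAG00000017580 and ENSBTAG00000038438, and the others led in 1 of them. No gene of 11919 (0%) was called in either comparison by the quasi-likelihood test of edgeR, with adjusted p = 0.527 for all 6 members among short embryos and 0.414 to 0.42 at equal size. At an unadjusted edgeR p below 0.05 there were 1059 and 1415 of 11919 genes, where a share of about 0.05 would be reached if nothing differed. These counts depended on few embryos. Without omega-6 embryos 22 and 25 they were 252 and 527 of 11869 genes. Leaving out omega-3 embryo 14 gave 1469 and 574 of 11878, and leaving out embryos 22, 25 and 14 gave 465 and 327 of 11831. DESeq2 and limma also called 0 in both.

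Genes that were not chosen lay as near to the top. ENSBTAG00000032642 ranked 1 among short embryos, at 0.293, 0.687 and 59.5 CPM (counts per 1000000 of the file total; lowest, median and highest) in 10 short omega-3 embryos and 0.241, 0.849 and 1.93 CPM in 11 omega-6 embryos. ENSBTAG00000008812 ranked 14, just after the last member among the first 20, at 12.6 ± 2.14 CPM in short omega-3 and 15.5 ± 2.17 CPM in omega-6 embryos (SD, n = 10 and 11). At equal size ENSBTAG00000023947 ranked 4, at 9.99 ± 0.987 and 13.9 ± 4.04 CPM, and ENSBTAG00000000700 ranked 8, at 18.1 ± 3.07 and 13.7 ± 3.24 CPM in the same groups.

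Total counts were 21282978 to 29868584 in omega-3 and 17931620 to 28560043 in omega-6 libraries. Omega-6 embryos 22 and 25 stood apart in their scaling factors, at 0.773 and 0.888 against 0.964 to 1.09 in the other 25 libraries, and embryo 14 (short omega-3) had the lowest size number, 0.4. At 8 tested genes every m embryo lay above every f embryo other than number 07, and embryo 07, labelled f, lay within the m range at all 8. All 6 members passed the filter on low counts, which asked for 0.411 CPM in at least 6 embryos. ENSBTAG00000038438 passed only through the diet in which it is high, with 1 of 16 omega-3 and 6 of 11 omega-6 embryos at that level, and without embryos 22 and 25 it no longer passed. The other 5 had all 16 omega-3 embryos and at least 9 omega-6 embryos at or above it.

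ENSBTAG00000017580 was the better counted of the pair with more RNA under omega-3, with 71 to 316 counts per embryo. Its level was 3.41, 8.6 and 10.8 CPM (lowest, median, highest) in 16 omega-3 embryos and 2.85, 3.66 and 8.29 CPM in 11 omega-6 embryos. The diets overlapped, but 9 omega-3 embryos lay above every omega-6 embryo and 4 omega-6 embryos below every omega-3 embryo. Mean CPM was 7.75 ± 2.33 in omega-3 and 4.43 ± 1.89 in omega-6 embryos (SD), a log2 ratio of 0.81 ± 0.21 (SE) and a 1.75-fold difference.

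The omega-3 excess of this gene was smaller in small embryos than in mid-sized ones, by values alone. The test of a change with size, given with the slopes, did not pass, so the bands are not shown to differ. Small embryos (size number 1.3 to 2.6) measured 3.78, 6.61 and 7.64 CPM in the 3 omega-3 embryos and 3.34, 3.81 and 7.83 CPM (lowest, median, highest) in the 6 omega-6 embryos, a log2 ratio of 0.40 ± 0.36 (SE). In mid-sized embryos (4.4 to 8) the 5 omega-3 embryos held 4.72, 8.68, 9.51, 10.6 and 10.8 CPM and the 4 omega-6 embryos 3.14, 3.49, 3.73 and 8.29 CPM, a log2 ratio of 0.93 ± 0.42. In that band 4 of 5 omega-3 embryos exceeded every omega-6 embryo, and the single high omega-6 value was embryo 26, the largest of its diet. On leaving out each embryo in turn the mid-sized ratio ran from 0.78 without embryo 28 to 1.36 without embryo 26. The small-band ratio ran from 0.19 without embryo 13 to 0.65 without embryo 12. Without embryos 22, 25 and 14 the ratio over all sizes was 0.76 ± 0.22.

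ENSBTAG00000005141 had few reads, 7 to 93 counts per embryo. It measured 0.658, 1.01 and 3.6 CPM (lowest, median, highest) in 16 omega-3 embryos and 0.315, 0.702 and 0.97 CPM in 11 omega-6 embryos. The highest value was that of embryo 14, and the next was 1.64 CPM in embryo 07. Mean CPM was 1.18 ± 0.705 in omega-3 and 0.684 ± 0.233 in omega-6 embryos (SD), a log2 ratio of 0.78 ± 0.26 (SE). Leaving out embryos 22, 25 and 14 gave 1.02 ± 0.291 and 0.7 ± 0.213 CPM (n = 15 and 9) and a ratio of 0.54 ± 0.18.

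Within matched sizes the diets overlapped for this gene. The 3 small omega-3 embryos held 0.903, 1.14 and 1.48 CPM, and the 6 small omega-6 embryos 0.315, 0.821 and 0.97 CPM (lowest, median, highest), a log2 ratio of 0.65 ± 0.29. The 5 mid-sized omega-3 embryos held 0.703, 0.804, 0.836, 0.887 and 1.24 CPM against 0.475, 0.692, 0.702 and 0.849 CPM in the 4 omega-6 embryos, a ratio of 0.40 ± 0.22. In each band 2 omega-3 embryos exceeded every omega-6 embryo.

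ENSBTAG00000003525 was by far the most counted of the 6, with 943 to 2096 counts per embryo and a mean CPM above 74.4% of the tested genes. It held 35.0, 50.1 and 65.9 CPM (lowest, median, highest) in 16 omega-3 embryos and 41.9, 64.9 and 78.4 CPM in 11 omega-6 embryos. Of the omega-6 embryos 5 lay above every omega-3 embryo, and long and short omega-3 embryos averaged 49.2 ± 8.11 and 50.3 ± 7.57 CPM (SD, n = 6 and 10). The log2 ratio of omega-3 to omega-6 was -0.36 ± 0.10 (SE), a 1.29-fold difference, and -0.42 ± 0.10 without embryos 22, 25 and 14.

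**Figure D1:**
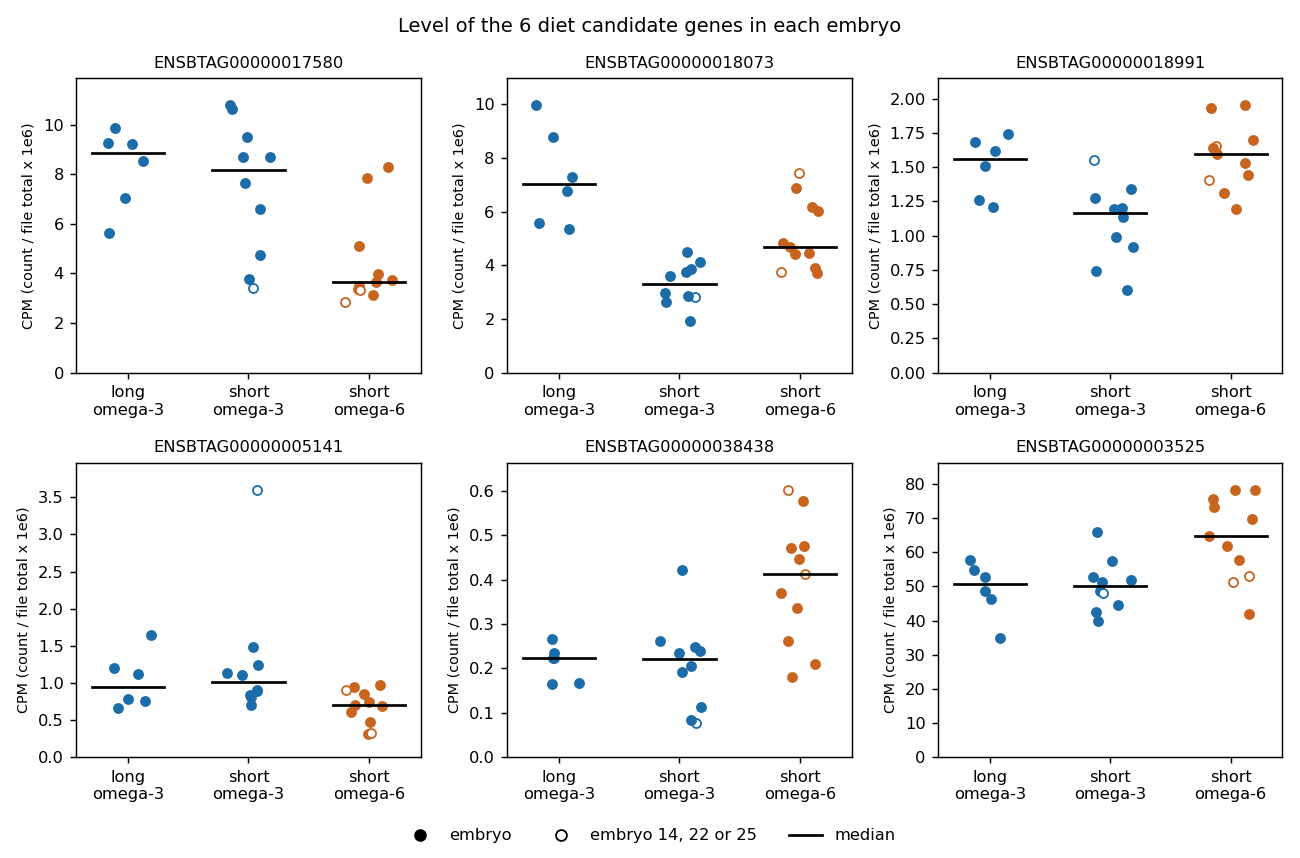
Level (CPM, count over file total) of the 6 genes in each embryo, by long omega-3 (n = 6), short omega-3 (n = 10) and short omega-6 (n = 11) group. Points are embryos, open points embryos 14, 22 and 25, and lines group medians; the diets overlap for every gene, and for ENSBTAG00000018073 the 6 long omega-3 embryos lie above all 10 short omega-3 embryos.

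In the small band the omega-3 embryos held 42.5, 48.8 and 52.9 CPM of ENSBTAG00000003525 and the 6 omega-6 embryos 51.4, 65.8 and 78.2 CPM (lowest, median, highest). Only the lowest omega-6 embryo, number 25, reached into the omega-3 range. In the mid-sized band the values were 44.6, 51.4, 51.9, 57.6 and 65.9 CPM in omega-3 and 41.9, 64.9, 73.3 and 78.4 CPM in omega-6 embryos. There embryo 26 lay below all 5 omega-3 embryos, and the log2 ratio was -0.25 ± 0.20 (SE). On leaving out each embryo in turn it ran from -0.41 without embryo 26 to -0.15 without embryo 23. In the small band the ratio was -0.45 ± 0.13, and ran from -0.53 without embryo 12 to -0.37 without embryo 05.

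ENSBTAG00000018991 had 16 to 44 counts per embryo. Its level was 0.602, 1.24 and 1.74 CPM (lowest, median, highest) in 16 omega-3 embryos and 1.19, 1.6 and 1.95 CPM in 11 omega-6 embryos. Among short embryos 5 omega-3 embryos lay below every omega-6 embryo and 6 omega-6 embryos above every short omega-3 embryo. Means were 1.09 ± 0.285 CPM in short omega-3 and 1.58 ± 0.238 CPM in omega-6 embryos (SD, n = 10 and 11), a log2 ratio of -0.53 ± 0.14 (SE). With the long omega-3 embryos included the ratio was -0.34 ± 0.11. Without embryos 22, 25 and 14 it was -0.61 ± 0.14 among short and -0.37 ± 0.13 among all embryos.

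This gene had no overlap between the diets in either band of matched size. The 3 small omega-3 embryos held 0.602, 0.739 and 1.14 CPM and the 6 small omega-6 embryos 1.19, 1.65 and 1.95 CPM (lowest, median, highest). The 5 mid-sized omega-3 embryos held 0.919, 0.992, 1.19, 1.2 and 1.27 CPM, and the 4 omega-6 embryos 1.31, 1.44, 1.6 and 1.93 CPM. Log2 ratios were -0.96 ± 0.29 and -0.49 ± 0.15 (SE). Long omega-3 embryos, at 1.5 ± 0.221 CPM (SD, n = 6), were close to the omega-6 mean, with a log2 ratio of -0.07 ± 0.11 to the omega-6 embryos.

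ENSBTAG00000018073, with 47 to 269 counts per embryo, had a different median in each of the 3 groups, and the omega-6 values overlapped both others. Long omega-3 embryos held 5.34, 7.03 and 9.97 CPM (lowest, median, highest), short omega-3 embryos 1.93, 3.29 and 4.51 CPM and omega-6 embryos 3.73, 4.7 and 7.43 CPM. The long omega-3 values overlapped the omega-6 values and no short omega-3 value, and 6 of 10 short omega-3 embryos lay below every omega-6 embryo. The log2 ratio to omega-6 embryos was 0.51 ± 0.18 (SE) for long omega-3 and -0.63 ± 0.16 for short omega-3 embryos, and -0.09 ± 0.21 for all omega-3 embryos together. Every omega-6 embryo was short, so the ratio for long embryos holds size as well as diet, which cannot be told apart there. Without embryos 22, 25 and 14 the ratio was -0.58 ± 0.16 for short and -0.02 ± 0.21 for all omega-3 embryos.

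By matched size the ratio of ENSBTAG00000018073 was larger in small than in mid-sized embryos, by values alone. Small embryos held 1.93, 2.63 and 3.75 CPM in omega-3 and 3.89, 6.11 and 7.43 CPM (lowest, median, highest) in 6 omega-6 embryos, with no overlap and a log2 ratio of -1.08 ± 0.31 (SE). Mid-sized embryos held 2.85, 2.96, 3.62, 4.12 and 4.51 CPM in omega-3 and 3.73, 4.43, 4.47 and 4.84 CPM in omega-6 embryos, with overlap and a ratio of -0.27 ± 0.15. Whether the ratio differed between the bands is taken up with the size slopes.

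ENSBTAG00000038438 was counted 2 to 15 times per embryo, and only 0.336% of tested genes had a lower mean CPM. It measured 0.0775, 0.222 and 0.421 CPM (lowest, median, highest) in 16 omega-3 embryos and 0.18, 0.413 and 0.602 CPM in 11 omega-6 embryos. Of the omega-6 embryos 5 lay above every omega-3 embryo. The log2 ratio was -0.91 ± 0.21 (SE), the largest of the 6 over all embryos, and -0.76 ± 0.22 without embryos 22, 25 and 14.

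In mid-sized embryos the 5 omega-3 embryos held 0.0836, 0.234, 0.239, 0.248 and 0.263 CPM and the 4 omega-6 embryos 0.369, 0.471, 0.475 and 0.577 CPM, with no overlap and a log2 ratio of -1.15 ± 0.26. In small embryos the values were 0.113, 0.205 and 0.421 CPM in omega-3 and 0.18, 0.299 and 0.446 CPM (lowest, median, highest) in omega-6 embryos. There the ratio of -0.32 ± 0.57 became 0.03 without embryo 13 and -0.95 without embryo 05. The bands are thus not shown to differ, and the test of a change with size, given with the slopes, did not pass.

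Across the bands, then, 2 of 6 members were lower in omega-3 without overlap among small embryos (ENSBTAG00000018073 and ENSBTAG00000018991), and 2 of 6 among mid-sized embryos (ENSBTAG00000018991 and ENSBTAG00000038438). Of all 11919 tested genes 0.78% were lower and 0.629% higher in omega-3 without overlap in the small band, and 0.302% lower and 0.629% higher in the mid-sized band. Because the same embryos chose the members, nothing follows from the members' share being above these. The median size of the log2 ratio over all tested genes was 0.15 in the small band and 0.09 in the mid-sized band.

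**Figure D2:**
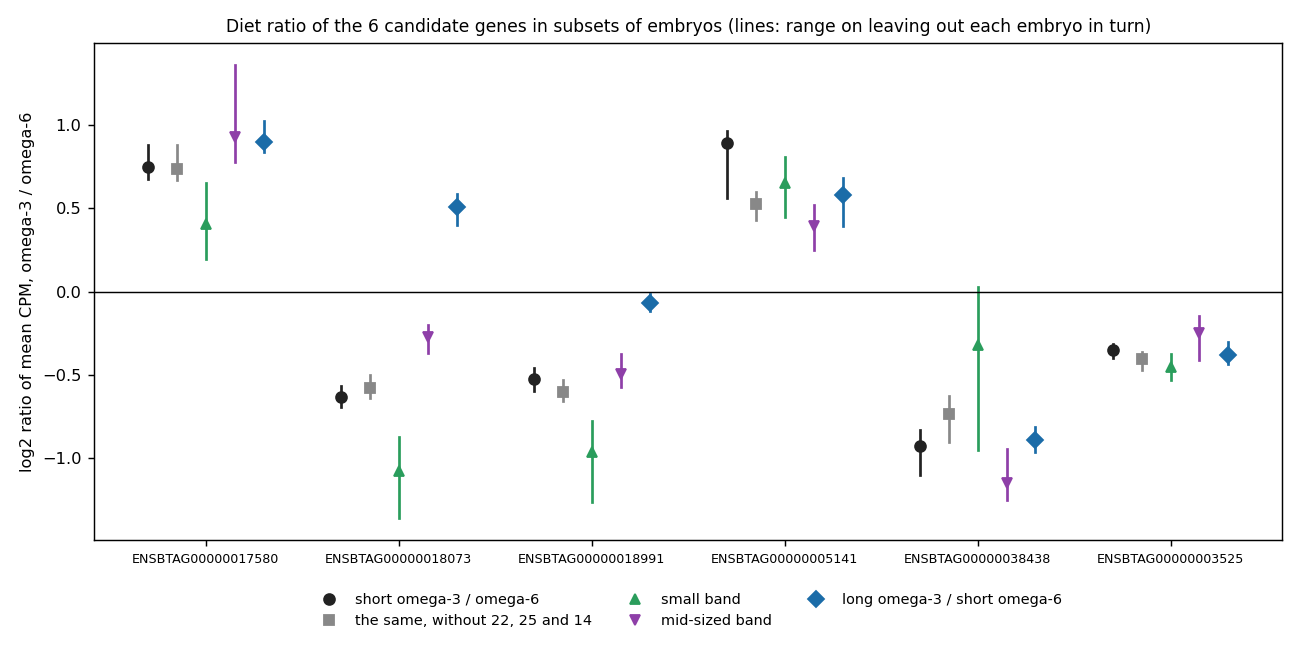
Log2 ratio of mean CPM, omega-3 over omega-6, of the 6 genes in 5 subsets of embryos; lines give the range on leaving out each embryo in turn. ENSBTAG00000003525 lies between -0.45 and -0.25 in every subset, whereas ENSBTAG00000018073 runs from -1.08 in small embryos to 0.51 for long omega-3 over short omega-6 embryos.

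The members were not chosen by their size slopes, and these were tested. Slopes are log2 changes per doubling of the size number from counts scaled by trimmed mean of M-values (TMM), in a model that also holds diet and sex letter. The same fit gave the diet comparison at equal size, in which ENSBTAG00000005141 ranked 2, against 42 among short embryos. Because the diets differ in mean size, this slope is tied to the diet value of the same model. It is therefore not independent of the choice. Fits within each diet use no difference between diets and stand beside it. They still hold the embryos whose levels chose the members. The omega-3 fit includes the short omega-3 embryos, in which some members were chosen for a low level, so its slopes are not independent of the choice. Over all 27 embryos 14.2% of tested genes rose and 14.7% fell with size by edgeR's test, 1698 and 1752 genes. Of the members 2 rose and 1 fell. The balance depended on scaling, with 1303 genes up and 2582 down under file totals alone, where the same 3 members passed in the same directions.

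ENSBTAG00000017580 rose by 0.23 ± 0.07 (SE) per doubling (edgeR adjusted p = 0.00973) and ENSBTAG00000018073 by 0.27 ± 0.08 (adjusted p = 0.0142). ENSBTAG00000005141 had a slope of -0.26 ± 0.07 (adjusted p = 0.0067). The other 3 did not pass, with slopes of 0.10 ± 0.06 for ENSBTAG00000018991, 0.17 ± 0.11 for ENSBTAG00000038438 and 0.01 ± 0.04 for ENSBTAG00000003525 (adjusted p = 0.207, 0.242 and 0.816). The 95% interval of the last slope ran from -0.06 to 0.09.

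Several of these calls turned on embryo 14, the smallest. Without it the slope of ENSBTAG00000017580 was 0.20 ± 0.09 and that of ENSBTAG00000005141 -0.07 ± 0.10, neither passing (adjusted p = 0.108 and 0.645), and that of ENSBTAG00000038438 was 0.08 ± 0.13, while ENSBTAG00000018991 rose by 0.25 ± 0.07 (adjusted p = 0.0176). Embryo 14 held 1.55 CPM of ENSBTAG00000018991, above all other short omega-3 embryos, and 3.6 CPM of ENSBTAG00000005141. ENSBTAG00000018073 passed with and without it (without it 0.32 ± 0.11, adjusted p = 0.0418). With size on the linear scale ENSBTAG00000005141 did not pass (adjusted p = 0.104) and ENSBTAG00000018991 did (adjusted p = 0.039).

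**Figure D3:**
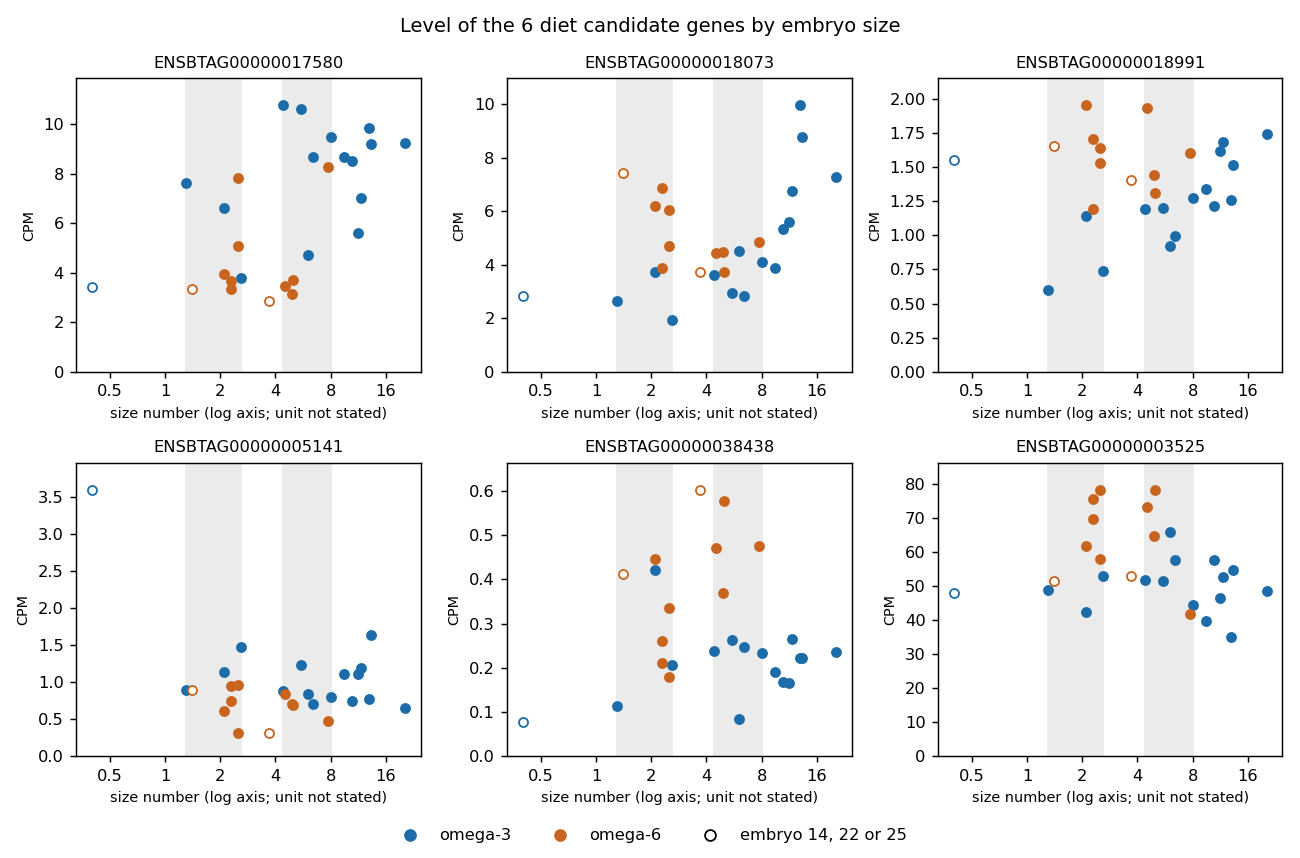
Level (CPM) of the 6 genes against the size number (log axis, unit not stated), by diet. Shaded bands are the small (1.3 to 2.6) and mid-sized (4.4 to 8) ranges and open points embryos 14, 22 and 25; ENSBTAG00000003525 stays level over size, and the highest value of ENSBTAG00000005141, 3.6 CPM, belongs to the smallest embryo.

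Within the 16 omega-3 embryos 18.3% of tested genes rose and 18.1% fell with size, 2187 and 2161 genes, against 1652 and 3101 under file totals alone. The same 3 members passed under both scalings. With TMM they were ENSBTAG00000018073 at 0.36 ± 0.08 (SE, edgeR adjusted p = 0.0019), ENSBTAG00000017580 at 0.23 ± 0.07 (adjusted p = 0.00985) and ENSBTAG00000005141 at -0.26 ± 0.08 (adjusted p = 0.0162). The slope of ENSBTAG00000038438, 0.14 ± 0.12, was -0.0047 without embryo 14. In the same fit the slopes of ENSBTAG00000017580 and ENSBTAG00000005141 were 0.18 and -0.03 (adjusted p = 0.143 and 0.882), and ENSBTAG00000018991 passed at 0.34 ± 0.08 (adjusted p = 0.00523). In the 10 short omega-3 embryos alone, a subset chosen after seeing the data, the slope of ENSBTAG00000018073 was 0.15 ± 0.08 and did not pass (adjusted p = 0.184).

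Within the 11 omega-6 embryos the test called 1 gene of 11919 (0.00839%) and no member. Slopes there were 0.24 ± 0.20 (SE) for ENSBTAG00000017580, 0.31 ± 0.29 for ENSBTAG00000038438, -0.03 ± 0.16 for ENSBTAG00000018991, -0.08 ± 0.12 for ENSBTAG00000003525, -0.23 ± 0.24 for ENSBTAG00000005141 and -0.28 ± 0.13 for ENSBTAG00000018073 (edgeR adjusted p from 0.54 to 0.925). Their standard errors ran from 0.12 to 0.29, against 0.04 to 0.12 in omega-3 embryos. Without embryos 22 and 25 the slope of ENSBTAG00000005141 was -0.13 and that of ENSBTAG00000003525 -0.14. ENSBTAG00000018073 had slopes of opposite sign in the diets, 0.36 in omega-3 and -0.28 in omega-6. Without embryos 22 and 25 its omega-6 slope was -0.20 ± 0.15 (edgeR adjusted p = 0.576). These slopes cover unlike spans, with size numbers from 0.4 to 20.3 in omega-3 and from 1.4 to 7.7 in omega-6 embryos.

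The change of the diet difference with size was tested directly in the 21 short embryos. ENSBTAG00000018073 had the largest of the members, 0.46 ± 0.16 per doubling (SE), in the direction of a diet difference that shrinks as size increases, and it did not pass (edgeR adjusted p = 0.835; range 0.796 to 0.999 over the alternatives tried). Without embryos 22 and 25 it was 0.34. For the other 5 the estimates lay between -0.10 and 0.11 with standard errors of 0.13 to 0.35. Leaving out embryo 14 changed those of ENSBTAG00000017580 and ENSBTAG00000003525 little, to 0.02 and 0.10, and moved the rest. Without it the estimate was 0.36 ± 0.18 for ENSBTAG00000018991 (0.08 with it), -0.33 ± 0.38 for ENSBTAG00000038438 (-0.10 with it) and 0.18 ± 0.27 for ENSBTAG00000005141 (-0.08 with it), with edgeR adjusted p from 0.863 to 0.878. Over all genes 0 of 11919 (0%) were called, with 513 at an unadjusted p below 0.05 and 0 called by DESeq2 or limma. For ENSBTAG00000017580, whose ratio was smaller in the small band, the change was 0.04 ± 0.20 per doubling (adjusted p = 0.953).

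**Figure D4:**
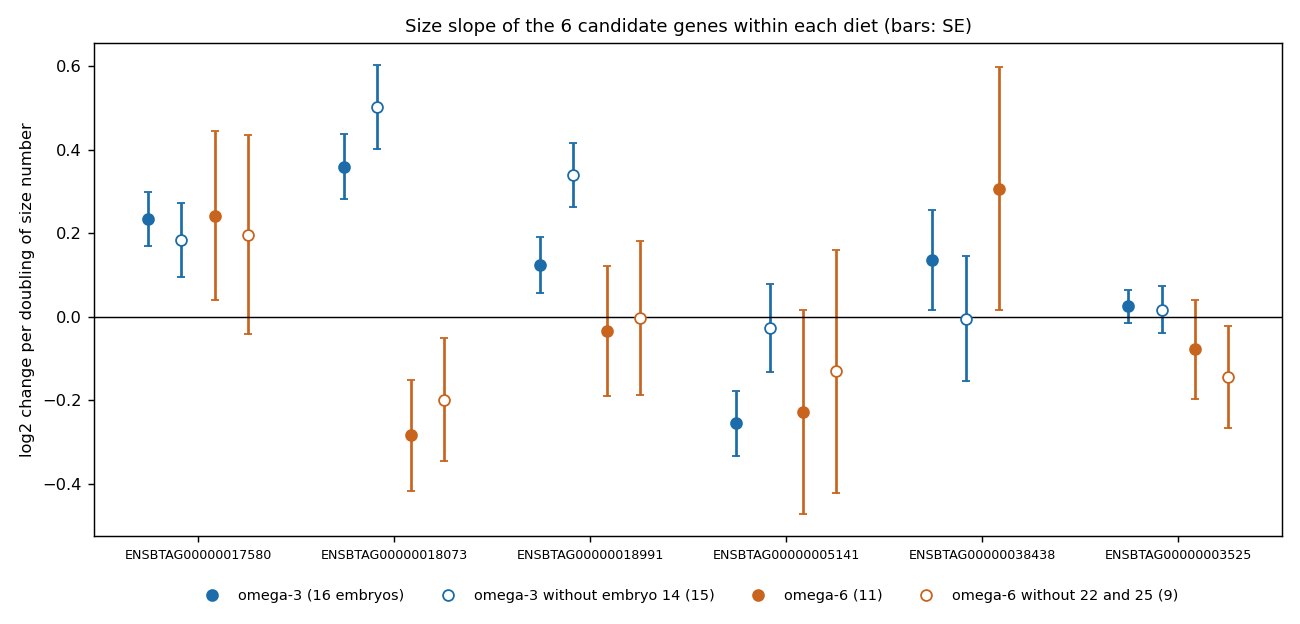
Size slope of the 6 genes (log2 change per doubling of the size number, bars SE) within omega-3 and within omega-6 embryos, with all embryos (filled) and without embryo 14 or without embryos 22 and 25 (open). ENSBTAG00000018073 has 0.36 in omega-3 and -0.28 in omega-6 embryos, over unlike ranges of size. ENSBTAG00000038438 has no open omega-6 point because it did not pass the filter without embryos 22 and 25.

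Long and short embryos of the omega-3 diet gave 1 call among the members. ENSBTAG00000018073 was higher in long embryos by 1.17 ± 0.19 (log2, SE), with an edgeR adjusted p of 0.00779 and the rank 2 of 11919 by unadjusted p, while 0.956% of genes were called higher and 0.461% lower. All 6 long embryos exceeded all 10 short ones; 0.344% of tested genes were higher and 0.453% lower in long embryos without overlap. The call held without embryo 14 (1.14, adjusted p = 0.022), without embryo 07 (1.12, adjusted p = 0.0323), and on leaving out each of the other long embryos (1.04 to 1.24, adjusted p from 0.00728 to 0.0489). Short omega-3 embryos are shared with the diet comparison that chose the gene for its low level in them, so this is not independent of the choice. ENSBTAG00000018991 differed by 0.49 ± 0.17 (adjusted p = 0.119), and the other 4 by -0.26 to 0.25 (adjusted p from 0.612 to 0.999).

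At equal size, that is with log2 size number in the model of all embryos, the diet differences that chose the genes stood beside these slopes as follows. ENSBTAG00000018073 had a diet difference of -0.44 ± 0.22 (log2, SE), and -0.53 without embryo 14. ENSBTAG00000017580 had 0.63 ± 0.17, and 0.68 without that embryo. The value of ENSBTAG00000005141 was 0.90 ± 0.21 with embryo 14 and 0.64 ± 0.21 without it, and that of ENSBTAG00000018991 -0.47 ± 0.15 with it and -0.69 ± 0.15 without it. Those 2 genes are also the ones whose size slopes moved most when the smallest embryo was left out, so how their diet difference compares in size with a doubling depends on 1 library. ENSBTAG00000038438 had -1.10 ± 0.25 with embryo 14 and -0.98 without it, and ENSBTAG00000003525 -0.41 ± 0.10 and -0.38.

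Shares of the variance of log2 CPM that a term takes beyond the other terms of a linear model put size and diet on 1 scale. Diet took 45.5% for ENSBTAG00000038438, 39.7% for ENSBTAG00000005141, 38.4% for ENSBTAG00000003525, 35.6% for ENSBTAG00000018991, 22.8% for ENSBTAG00000017580 and 12.1% for ENSBTAG00000018073, beside a median of 3.57% over all tested genes. These shares restate the choice. Size took 28.6% for ENSBTAG00000018073, 23% for ENSBTAG00000005141, 18.7% for ENSBTAG00000017580, 11.5% for ENSBTAG00000018991, 5.74% for ENSBTAG00000038438 and 0.0893% for ENSBTAG00000003525, beside a median of 9.2%. ENSBTAG00000018073 was thus the only member for which size took more than diet. Without embryos 22, 25 and 14 the size share was 40.9% for ENSBTAG00000018991, 39.5% for ENSBTAG00000018073, 8.24% for ENSBTAG00000017580, 3.96% for ENSBTAG00000038438, 0.834% for ENSBTAG00000005141 and 0.499% for ENSBTAG00000003525. In the same embryos diet took 49.1% for ENSBTAG00000018991, 36.3% for ENSBTAG00000038438 and 29.8% for ENSBTAG00000005141. It took 27.7% for ENSBTAG00000003525, 23.8% for ENSBTAG00000017580 and 13.5% for ENSBTAG00000018073. Size again took more than diet for ENSBTAG00000018073 only. The median over all genes was 10% for size and 1.37% for diet.

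How much of the spread counting alone would give differed widely. For ENSBTAG00000003525 the SD between embryos was 7.52 CPM in omega-3 and 12.2 CPM in omega-6, against 1.42 and 1.64 CPM expected from Poisson counting. For ENSBTAG00000017580 it was 2.33 and 1.89 CPM against 0.557 and 0.431 CPM, and for ENSBTAG00000018073 2.33 and 1.3 CPM against 0.439 and 0.463 CPM. Embryos of a diet thus differed in these 3 genes well beyond counting.

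The 3 others were less deeply counted. ENSBTAG00000038438 had an SD of 0.0822 CPM in omega-3 and 0.139 CPM in omega-6 embryos against 0.0917 and 0.128 CPM from counting, and averaged 5.25 and 9.55 reads. ENSBTAG00000018991 had 0.327 and 0.238 CPM against 0.224 and 0.257 CPM, with 31.1 and 37.8 reads. Counting alone exceeded the measured spread of ENSBTAG00000038438 in omega-3 and of ENSBTAG00000018991 in omega-6 embryos, so differences between single embryos there were not detectable at this depth. ENSBTAG00000005141 had 0.705 and 0.233 CPM against 0.217 and 0.169 CPM, the omega-3 value resting on embryo 14.

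**Figure D5:**
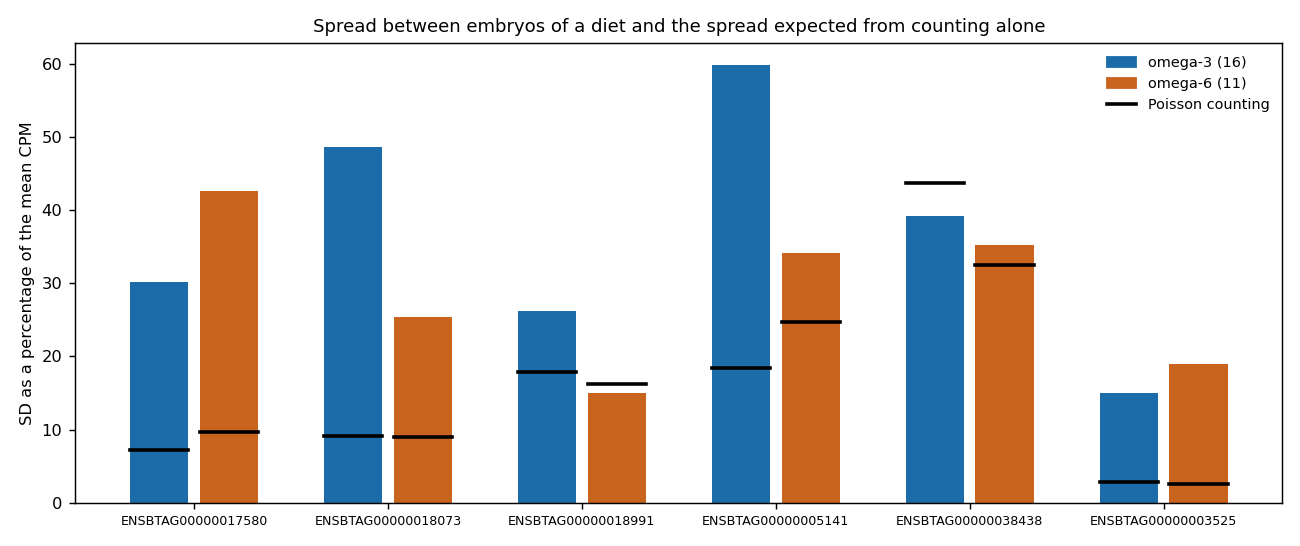
Standard deviation between embryos of a diet as a percentage of the mean CPM (bars, omega-3 n = 16 and omega-6 n = 11) and the value expected from Poisson counting alone (black lines). Counting lies above the bar for ENSBTAG00000038438 in omega-3 and ENSBTAG00000018991 in omega-6 embryos and far below it for ENSBTAG00000003525.

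The sex letter was tested in the model of group and letter, in which 0.386% of genes were called, and no member was (edgeR adjusted p = 1 for each). The largest difference was that of ENSBTAG00000017580, lower in m than in f by values, at a log2 difference of -0.39 ± 0.18 (SE). The other 5 lay between -0.10 and -0.0047. Letters were 10 m and 6 f in omega-3 and 5 m and 6 f in omega-6 embryos. Embryo 07 was counted as f, its label, although it lay within the m range at all 8 genes that set the letters apart. Values without it are given with the alternatives.

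The members did not vary as 1 group. Over the 27 embryos the highest Pearson r of log2 CPM between members was 0.623, for ENSBTAG00000018073 and ENSBTAG00000018991, and the lowest was -0.505, for ENSBTAG00000017580 and ENSBTAG00000003525; without embryos 22, 25 and 14 these were 0.672 and -0.642. Such values share the library, its depth and the diet by which the genes were chosen, and are given without a test.

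By the rule of highest r over the 27 embryos, the non-member most like ENSBTAG00000017580 was ENSBTAG00000007320 (r = 0.806), at 67.6 ± 9.99 CPM in omega-3 and 55.0 ± 4.15 CPM in omega-6 embryos (SD, n = 16 and 11), followed by ENSBTAG00000021918 (r = 0.767). For ENSBTAG00000018073 they were ENSBTAG00000001193 (0.761) and ENSBTAG00000032122 (0.743), for ENSBTAG00000018991 ENSBTAG00000010758 (0.69) and ENSBTAG00000012755 (0.667), for ENSBTAG00000038438 ENSBTAG00000026660 (0.685) and ENSBTAG00000005210 (0.645), and for ENSBTAG00000003525 ENSBTAG00000020154 (0.693) and ENSBTAG00000044048 (0.673). Those most like ENSBTAG00000005141 were ENSBTAG00000019386 (0.738) and ENSBTAG00000005146 (0.734), and their r was 0.486 and 0.371 in the 24 embryos other than 22, 25 and 14. ENSBTAG00000032122 also ranked 5 for diet among short embryos. Its mean over all 16 omega-3 embryos, the long ones included, was 5.24 ± 1.45 CPM, against 6.78 ± 2.1 CPM in the 11 omega-6 embryos (SD).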

How the data were processed

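RNA of 27 embryos was read on an Illumina NovaSeq from stranded mRNA libraries (single-end), per the labels' protocols. STAR and featureCounts are named in the submitters' processing notes; no version, genome build, annotation or strand setting is given in the sources used here. The deposited files hold the authors' whole-number read counts for 19994 Ensembl identifiers, not normalised. CPM are counts over the file total, times 1000000. Tests were edgeR 4.0.16 (R 4.3.3) quasi-likelihood F-tests, two-sided, with TMM scaling and filterByExpr on the 3 groups (minimum count 10, total 15, proportion 0.7), Benjamini-Hochberg adjusted over 11919 genes and called below 0.05. The filter was the same for fits within a diet. SE is the log2 change over the square root of F; that of a ratio of means comes from both SDs. Variance shares and r used log2(CPM + 0.5), variance shares after TMM. Alternatives were RLE or no scaling factors, no filter, DESeq2 1.42.0, limma 3.58.1, no sex letter, linear size and fewer embryos. The tests of size slopes, of the letter and of the change of the diet difference were tried on simulated counts. Changes were planted only in genes with a mean of at least 2 CPM, above the levels of ENSBTAG00000018991, ENSBTAG00000005141 and ENSBTAG00000038438. The diet comparisons and long against short embryos were not simulated. The members and lists were chosen with earlier results of these data known. Genes named beside the members are the 2 of highest r with each, and in each diet comparison the first non-member and the next after the last member of the first 20; ENSBTAG00000032122 was remarked on after its values were seen. Lists of cell markers and pathways could not be run, since 0 identifiers had a symbol. Embryo numbers do not repeat, so nothing was paired.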

Additional observations from a re-analysis of the deposited data

Results flagged for a closer look

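In 30 groups of 4 to 10 embryos looked at for the 6 genes, 3 held a single embryo far from the others relative to the group's range; chance flags about 1 group in 20. ENSBTAG00000005141 stood at 3.6 CPM in embryo 14, against at most 1.48 CPM in the other 9 short omega-3 embryos. ENSBTAG00000038438 stood at 0.0836 CPM in embryo 15, from 2 reads. The other 4 mid-sized omega-3 embryos held 0.234 to 0.263 CPM, from 6 or 7 reads. Counting alone exceeded the measured spread of that gene in omega-3 embryos, so this embryo is not shown to differ beyond counting. ENSBTAG00000017580 stood at 8.29 CPM in embryo 26, against 3.14 to 3.73 CPM in the other 3 mid-sized omega-6 embryos. Embryo 14 has the lowest size number of all embryos and embryo 26 the highest of the omega-6 embryos; the part of size in these values was not tested.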

How the results depend on the processing

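In the fits of all sizes and of short embryos the diet difference of every member kept its sign under every alternative run, a direction that the choice of members fixes. Among short embryos the difference of ENSBTAG00000005141 was 0.52 to 0.89 and at equal size 0.56 to 0.96, and those of ENSBTAG00000038438 were -1.01 to -0.71 and -1.12 to -0.82. Genes called for diet among short embryos numbered 1 with no filter and 1 without embryo 07; no member was called for diet under any alternative. Counts for size were 2143 in all embryos without embryo 14 (3450 with it), 2859 in omega-3 without embryo 14 (4348 with it) and 2256 in short omega-3 embryos only; in omega-6 embryos (1 gene as reported) they were 175 with DESeq2, 10 without embryos 22 and 25, and 0 with file totals or without the sex letter. For the change of the diet difference with size 1 gene was called with no filter. Long against short omega-3 (169 as reported) gave 697 calls with DESeq2, 87 with no filter, 41 without embryo 07, 49 without embryo 14, 1007 without embryos 22 and 25, 475 without 22, 25 and 14, and 2 to 122 on leaving out each other long embryo. Letter m against f (46 as reported) gave 78 with DESeq2, 71 without embryo 07, 86 without 22 and 25, 84 without 22, 25 and 14 and 119 without 22, 25, 14 and 07. The reasons were not tested.

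In the small band the diet ratio of ENSBTAG00000038438, -0.32, turned to 0.026 without embryo 13. The other directions that turned were of size, size class or letter, in values that passed no test. For ENSBTAG00000003525 long minus short was -0.0038 with RLE, -0.031 with file totals, -0.0038 with DESeq2, -0.0021 with limma, -0.00014 without the sex letter, -0.038 without 07, -0.017 without 14, -0.0095 without 22, 25 and 14, -0.044 also without 07, and -0.056 to 0.079 on leaving out other long embryos; its size slope was -0.0057 with file totals, -0.0024 on linear size, -0.0065 without 14, -0.014 without 22, 25 and 14, -0.025 also without 07, and -0.00054 within omega-3 with file totals. For ENSBTAG00000005141 long minus short was 0.037 without 14 and 0.045 without 22, 25 and 14, the change of the diet difference 0.18 and 0.041 in the same fits, and m minus f 0.098 without 07, 0.079 without 22 and 25 and 0.0085 without all 4. For ENSBTAG00000038438 long minus short was -0.038 without 14 and -0.027 without all 4, m minus f 0.049 without 14 and the omega-3 slope -0.0047 without 14. Letter m minus f was 0.0051 for ENSBTAG00000003525 without 07, 0.024 for ENSBTAG00000018073 without all 4 and 0.00074 for ENSBTAG00000018991 with RLE. Depth limits ENSBTAG00000038438 most, at 2 to 15 reads.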
